A study of Mus musculus with 66 samples.

Results

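The loci of the 4 opioid receptor genes of the mouse were examined for islands of 2 histone marks in the prefrontal cortex (PFC). An island is a cluster of 200 bp windows with many precipitated reads, joined over gaps of up to 400 bp (H3K9me3) or 600 bp (H3K36me3). It is listed with its ChIP and input reads, of which the ChIP reads need not be more. Every island listed over a gene body plus 250 kb on either side was taken as a member. This gave 1541 of 1239421 listed H3K9me3 islands and 893 of 810323 listed H3K36me3 islands. Of the H3K9me3 islands, 832 lay in the window of Oprk1, 432 in that of Oprm1, 22 in that of Oprd1 and 255 in that of Oprl1. Of the H3K36me3 islands, 282, 259, 157 and 195 lay in the same windows, in that order. A false discovery rate (FDR) of at most 0.01 was met by 1178 of the H3K9me3 and 431 of the H3K36me3 members.

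The animals were adolescent male and female DBA/2J mice, an inbred strain, gavaged with water or with ethanol at 4 g/kg, as a solution of 25% w/v, in an intermittent schedule that ran over postnatal days 29 to 42. PFC was taken 24 h after the last dose, and each pool held tissue from 3 mice of its sex and treatment. Per sex there were 6 ethanol and 5 water pools, which makes 22 pools and, with an H3K9me3, an H3K36me3 and an input library each, 66 samples. Tissue was homogenized whole, so that a change in the share of a cell type and a change within cells cannot be told apart.

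Oprm1, Oprd1, Oprk1 and Oprl1 encode the mu, delta, kappa and nociceptin receptors, which couple to inhibitory G proteins and lower the release of transmitter and the firing of neurons. Their ligands are cut from precursors encoded by Pomc, Penk, Pdyn and Pnoc, and the kappa and mu systems are known for their part in aversive and rewarding responses to alcohol. H3K9me3 is a mark of heterochromatin and of silenced repeats, whereas H3K36me3 is laid down over the bodies of genes during transcription.

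The libraries differed in depth. Islands with an FDR of at most 0.01 held 1.94 to 13.05 M ChIP reads and covered 45.6 to 202 Mb per H3K9me3 library, against 0.347 to 2.16 M reads and 7.80 to 68.6 Mb per H3K36me3 library. Female water pool 2 had the fewest H3K9me3 islands (12804), and 1 male ethanol H3K36me3 library, that of pool 6, had 2248 islands. The length of a receptor window under H3K9me3 islands had a Pearson's r with the length covered in the whole library of 0.88 for Oprk1, 0.80 for Oprm1 and Oprl1 and -0.18 for Oprd1 over 22 libraries, both lengths coming from the same library. H3K36me3 islands over marker genes gave a weak check of the tissue. The 6 neuronal genes had one in 1 (Gad1) to 14 (Grin1) libraries. Of the genes of other brain cells, Cx3cr1 (microglia) had one in 11, Mbp (oligodendrocytes) in 5, Slc1a2 and Aqp4 (astrocytes) in 4 and 1, and Mog, Gfap and Csf1r in 0. The 6 genes of other tissues had one in 0 to 4 libraries.

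In GRCm38, Oprk1 lies at chr1:5588466-5606131 on the plus strand, and no other protein-coding gene overlaps its window. Oprm1, at chr10:6758506-7038198 on the plus strand, overlaps Gm10945 and Ipcef1, with Cnksr3 also in the window. Oprd1, at chr4:132110726-132144486 on the minus strand, has 12 protein-coding neighbours, among them Srsf4, Gmeb1 and Epb41. Oprl1, at chr2:181715016-181720985 on the plus strand, has 15, among them Prpf6, Myt1 and Rgs19, a regulator of G protein signaling.

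The H3K9me3 islands of the receptor loci lay around the genes and, apart from Oprm1, not within them. The bodies of Oprk1, Oprd1 and Oprl1 had no listed H3K9me3 island in any of the 22 libraries, as was the case for 70.4% of 21938 protein-coding genes. The Oprm1 body had a listed island in all 22 and one at an FDR of at most 0.01 in 21. At Oprk1, islands covered 18.5% of the window on average, at percentile 94.7 of all genes, where the median was 1.26%. Oprl1 had 5.69% and Oprm1 5.34% of the window covered, while Oprd1 had 0.131%. The nearest H3K9me3 island to the start of Oprk1 was 4.27 kb away in the closest library and 12.2 kb away in the median library. At Oprd1 the nearest was 248 kb away in the median library.

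**Figure D1:**
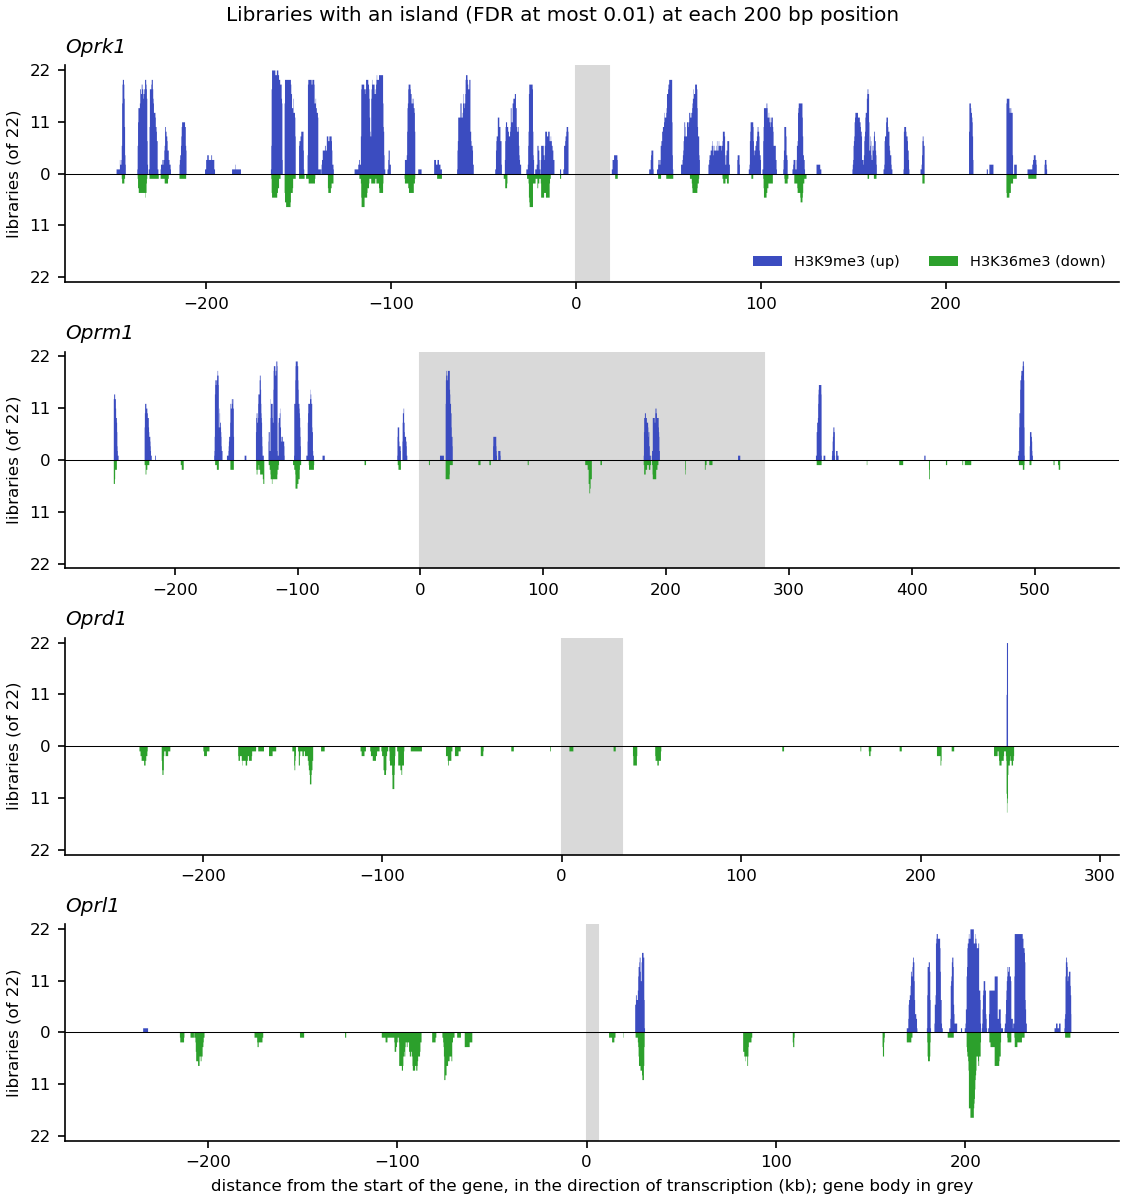
Number of libraries (of 22) with an island of FDR at most 0.01 at each 200 bp position, against the distance from the start of each gene in kb, with H3K9me3 upward, H3K36me3 downward and the gene body in grey. Oprk1 is flanked by H3K9me3 islands on both sides, Oprl1 has them downstream, and Oprd1 has 1 position shared by 22 libraries near the edge of its window.

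Positions covered by islands of at least 11 libraries formed 57 H3K9me3 regions. Oprk1 had 29 of these (15 upstream and 14 downstream), Oprm1 16 (12 upstream, 2 in the body and 2 downstream), Oprl1 11, all of them downstream, and Oprd1 1. By annotation, 53 were intergenic and 4 intronic, and none overlapped an exon of a protein-coding gene. The intronic ones were a region in Oprm1 at chr10:6778601-6783000, a region shared by Oprm1 and Ipcef1, a region of Gm10945, and the Oprd1 region, which lay in an intron of Srsf4, the gene of a splicing factor. Repeat-masked sequence made up a median of 97.3% of the length of the receptor regions and 98.35% of that of all 41110 H3K9me3 regions, against 32.8 to 56.4% of the receptor windows.

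Of the 57 regions, 34 shared stretches of at least 1000 bp with at least 85% identity and formed 1 family of copies, with 17 members at Oprk1, 12 at Oprm1, 5 at Oprl1 and 0 at Oprd1. Aligned pairs were 85.1 to 99.7% identical, and 234 of the 371 pairs joined different loci. This sequence was not particular to the receptors. A stretch aligned to the first region below by the same criteria was found in 31 of the 57 receptor regions (54.4%) and in 57.8% of all H3K9me3 regions. The stretches below show how alike the copies are, aligned over 200 bases from GRCm38 and written 5′ to 3′. Capitals mark bases that differ from the first sequence, which lies upstream of Oprk1. All are on the plus strand. The second is the next copy towards Oprk1 and differs at 3 positions, and the others are the copies best aligned to the first from upstream of Oprm1 (6 differences), from an Oprm1 intron (28) and from downstream of Oprl1 (34).
Oprk1 chr1:5423817-5424016: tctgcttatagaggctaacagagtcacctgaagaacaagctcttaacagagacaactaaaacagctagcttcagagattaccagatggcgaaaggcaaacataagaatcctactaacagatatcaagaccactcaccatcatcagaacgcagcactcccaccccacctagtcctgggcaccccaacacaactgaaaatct
Oprk1 chr1:5430877-5431076: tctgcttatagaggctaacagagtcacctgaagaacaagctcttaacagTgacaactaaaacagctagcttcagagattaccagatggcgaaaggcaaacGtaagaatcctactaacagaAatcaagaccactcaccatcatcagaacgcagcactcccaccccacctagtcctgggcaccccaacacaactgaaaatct
Oprm1 chr10:6655419-6655618: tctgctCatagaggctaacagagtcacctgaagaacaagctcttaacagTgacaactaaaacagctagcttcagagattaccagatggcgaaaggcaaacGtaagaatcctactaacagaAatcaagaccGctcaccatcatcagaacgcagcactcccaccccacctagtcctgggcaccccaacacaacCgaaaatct
Oprm1 chr10:6778631-6778830: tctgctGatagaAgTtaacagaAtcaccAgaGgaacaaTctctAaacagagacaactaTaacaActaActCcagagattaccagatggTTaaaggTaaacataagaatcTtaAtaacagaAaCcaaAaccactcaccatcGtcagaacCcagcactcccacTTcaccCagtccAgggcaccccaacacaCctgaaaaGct
Oprl1 chr2:181940737-181940936: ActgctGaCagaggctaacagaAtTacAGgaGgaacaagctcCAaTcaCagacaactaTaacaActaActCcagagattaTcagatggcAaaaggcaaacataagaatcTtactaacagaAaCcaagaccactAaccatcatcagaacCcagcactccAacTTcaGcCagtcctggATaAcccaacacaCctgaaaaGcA

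The mice were DBA/2J and GRCm38 is the C57BL/6J genome, so the copies present in these animals may differ from those printed. For H3K9me3 the authors discarded reads that mapped to several places, and counts over near-identical copies are uncertain for that reason.

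Of the 28 H3K36me3 regions, which were built from all listed islands, 12 lay at Oprk1, 9 at Oprm1, 3 at Oprd1 and 4 at Oprl1, and 24 of them overlapped an H3K9me3 region. No H3K36me3 island was listed over the body of Oprk1 or Oprl1 in any library, as for 41.2% of genes. The Oprd1 body had one in 2 libraries and the Oprm1 body in all 22, or in 15 at an FDR of at most 0.01. At Oprk1, a median of 84.0% of the listed H3K36me3 island length of a pool lay inside H3K9me3 islands of that pool, against 67.3% over the genome. The median was 68.2% at Oprm1, 58.1% at Oprl1 and 3.50% at Oprd1. With islands of FDR at most 0.01 it was 76.1% at Oprk1, 43.8% at Oprm1, 37.1% at Oprl1 and 2.35% at Oprd1. Over the genome it was then 47.1%. At Oprk1, ChIP and input reads were close to each other. The region at chr1:5423801-5427800, for example, had a median of 25.8 H3K36me3 ChIP reads and 28.1 input reads per kb.

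Besides the first Oprk1 region above, the H3K9me3 regions with an island in all 22 libraries were 1 at Oprl1 and that of Oprd1, and the central 300 bases of each are shown for that reason. Capitals mark CG dinucleotides, of which the Oprl1 stretch holds 3 and the Oprd1 stretch 4.
Oprl1 chr2:181918551-181918850: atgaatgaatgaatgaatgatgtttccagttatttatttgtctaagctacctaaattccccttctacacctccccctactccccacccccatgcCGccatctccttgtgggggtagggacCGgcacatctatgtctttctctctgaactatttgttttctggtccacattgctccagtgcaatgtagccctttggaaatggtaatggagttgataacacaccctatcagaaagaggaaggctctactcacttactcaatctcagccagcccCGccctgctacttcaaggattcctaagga
Oprd1 chr4:131896251-131896550: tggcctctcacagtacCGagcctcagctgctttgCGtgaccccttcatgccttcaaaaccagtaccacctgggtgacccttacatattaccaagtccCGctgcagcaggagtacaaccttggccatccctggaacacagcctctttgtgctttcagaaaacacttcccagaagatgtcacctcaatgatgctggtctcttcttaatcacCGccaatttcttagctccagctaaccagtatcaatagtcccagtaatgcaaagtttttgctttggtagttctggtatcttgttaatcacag

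The whole Oprd1 region at chr4:131896001-131896800 had 8.75 CG dinucleotides per kb, against a median of 5.81 over all H3K9me3 regions. The whole Oprl1 region had more, at 22.4 per kb, and the Oprd1 window as a whole had 13.3. The Oprl1 region at chr2:181915401-181922000 had a median of 115 input reads per kb, at percentile 99.9 of H3K9me3 regions, where the median was 20. Its ChIP reads were 1.24 to 2.29 times its input reads across libraries. The H3K36me3 region at chr2:181916601-181920400, which lies inside it, had 174 input reads per kb, and the next one, at chr2:181927401-181933400, had 113, against a median of 25 over all H3K36me3 regions.

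To ask whether ethanol changed H3K9me3 around the receptors, the island reads of each window were expressed per M island reads of the library (RPM), and mean log2(RPM + 1) was compared within each sex with a two-sided exact permutation test over all assignments of the pools. Levels ranked Oprk1 (580 ± 78.4 RPM, SD, n = 22), Oprl1 (413 ± 92.1), Oprm1 (247 ± 56.1) and Oprd1 (11.4 ± 5.24), and the ranges of neighbours in that order overlapped except for Oprm1 and Oprd1. These windows differ in length, and per kb the means were 1.12, 0.816, 0.317 and 0.0213 RPM. At Oprl1, the region of high input at chr2:181915401-181922000 held 26537 ChIP reads over 22 libraries. The Oprl1 region with the next most, at chr2:181940601-181946400, held 5389.

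The Oprm1 window was lower with ethanol in males. The 5 male water pools had 271, 316, 320, 334 and 351 RPM, and the 6 male ethanol pools ranged from 197 to 302 RPM with a median of 271. All but 1 of the water pools lay above every ethanol pool, and the groups overlapped. Mean levels were 319 ± 29.6 RPM (SD, n = 5) with water and 264 ± 35.7 RPM (SD, n = 6) with ethanol, a difference of -0.28 in log2 (exact permutation p = 0.0195). Among 18212 gene windows, 4.34% were at this unadjusted threshold of 0.05 in males and 0.928% were at it and lower, with a median difference of 0.04. Upstream of the gene, medians were 197 RPM with water and 164 with ethanol, and downstream they were 59.0 and 45.2. Over the Oprm1 body they were 64.8 and 57.3 RPM. The call was kept with all listed islands, at -0.13 (exact permutation p = 0.0498), and lost under other choices of islands, window and scale. With 100 kb flanks the difference was -0.50 and over the body alone -0.12 (exact permutation p = 0.117 and 0.686). As length covered (-7.24 kb) and per M reads of all listed islands (-0.29) it did not pass either (exact permutation p = 0.396 and 0.117). With islands of FDR at most 1e-05 the difference was -0.25 (exact permutation p = 0.299), and as ChIP over input it was -0.05 (exact permutation p = 0.255). Leaving out male water pool 1, 3, 4 or 5 also ended the call, with exact permutation p-values of 0.0619, 0.0524, 0.0524 and 0.0667. The differences were then -0.26, -0.28, -0.28 and -0.24.

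In females the Oprm1 window did not pass the test. Water pools had 156, 157, 206, 217 and 234 RPM and ethanol pools 181 to 252 RPM with a median of 222, overlapping ranges with a difference of 0.17 (exact permutation p = 0.245). It was 0.094 without female water pool 2 and 0.097 without female water pool 4. The difference between the sexes in this effect was 0.45 (exact permutation p = 0.0198, over 213444 assignments within sexes), and 3.95% of 17431 gene windows with reads in at least 3 libraries of each sex passed this test for H3K9me3. It passed with all listed islands (0.27, exact permutation p = 0.0378) and with a pseudocount of 0.1 RPM (0.45, exact permutation p = 0.0198), but not under 6 other choices of islands, window and scale. With islands of FDR at most 1e-05 both sexes were lower with ethanol, at -0.25 in males and -0.27 in females, and the difference between them was -0.023 (exact permutation p = 0.972). As ChIP over input the values were -0.05 and -0.070, with a difference of -0.018 (exact permutation p = 0.790). The difference between the sexes was 15.2 kb as length covered, 1.75 with 100 kb flanks, 1.36 over the body and 0.69 per M reads of all listed islands. None of these passed the test (exact permutation p = 0.0576 to 0.273). Leaving out 1 pool gave 0.36 to 0.52, with exact permutation p-values of 0.00780 to 0.0492. For the other receptors the same test of H3K9me3 gave p-values of 0.901 (Oprk1), 0.274 (Oprd1) and 0.498 (Oprl1), all exact permutation.

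Oprk1, the gene of the kappa receptor, did not pass the test in either sex. Male water pools ranged from 509 to 641 RPM with a median of 587, and male ethanol pools from 551 to 731 with a median of 684, a difference of 0.16 (exact permutation p = 0.119). Without male ethanol pool 1 it was 0.21 (exact permutation p = 0.0397). Female water pools ranged from 440 to 643 RPM with a median of 500, and female ethanol pools from 528 to 584 with a median of 559, a difference of 0.14 (exact permutation p = 0.149). Without female water pool 2, the highest of its group, the female difference was 0.23 (exact permutation p = 0.00476), and without female water pool 4 it was 0.094. Other island choices in females also gave smaller p-values, from 0.00433 with islands of FDR at most 1e-05 to 0.0281 over all listed island reads as the denominator (exact permutation).

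For Oprl1, female water pools ranged from 353 to 661 RPM and female ethanol pools from 276 to 461, a difference of -0.32 (exact permutation p = 0.108). In males the ranges were 413 to 524 and 320 to 582 RPM, with a difference of -0.14 (exact permutation p = 0.366), which was -0.24 without male ethanol pool 1, -0.069 without male ethanol pool 6 and -0.094 without male water pool 2. Leaving out 1 female pool gave -0.41 without ethanol pool 4 (exact permutation p = 0.0159) to -0.17 without water pool 2 (exact permutation p = 0.252). The sign turned as ChIP over input (0.041), as length covered (4.11 kb) and with 100 kb flanks (1.89, exact permutation p = 0.0368). Oprd1 had 1 island per library, with ranges of 8.32 to 12.8 RPM in male water, 7.43 to 14.5 in male ethanol, 5.61 to 30.4 in female water and 6.85 to 10.4 in female ethanol pools. The differences of Oprd1 were 0.02 in males and -0.47 in females (exact permutation p = 0.916 and 0.286), and leaving out 1 male pool gave -0.064 to 0.12. The female value was -0.74 without water pool 3 and -0.17 without water pool 2, and turned to 0.16 as ChIP over input and 0.61 with islands of FDR at most 1e-05. Of the 4 receptors, 1 in males and 0 in females thus passed an unadjusted 0.05, against 4.34% of gene windows in males and 6.17% of 17917 in females.

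**Figure D2:**
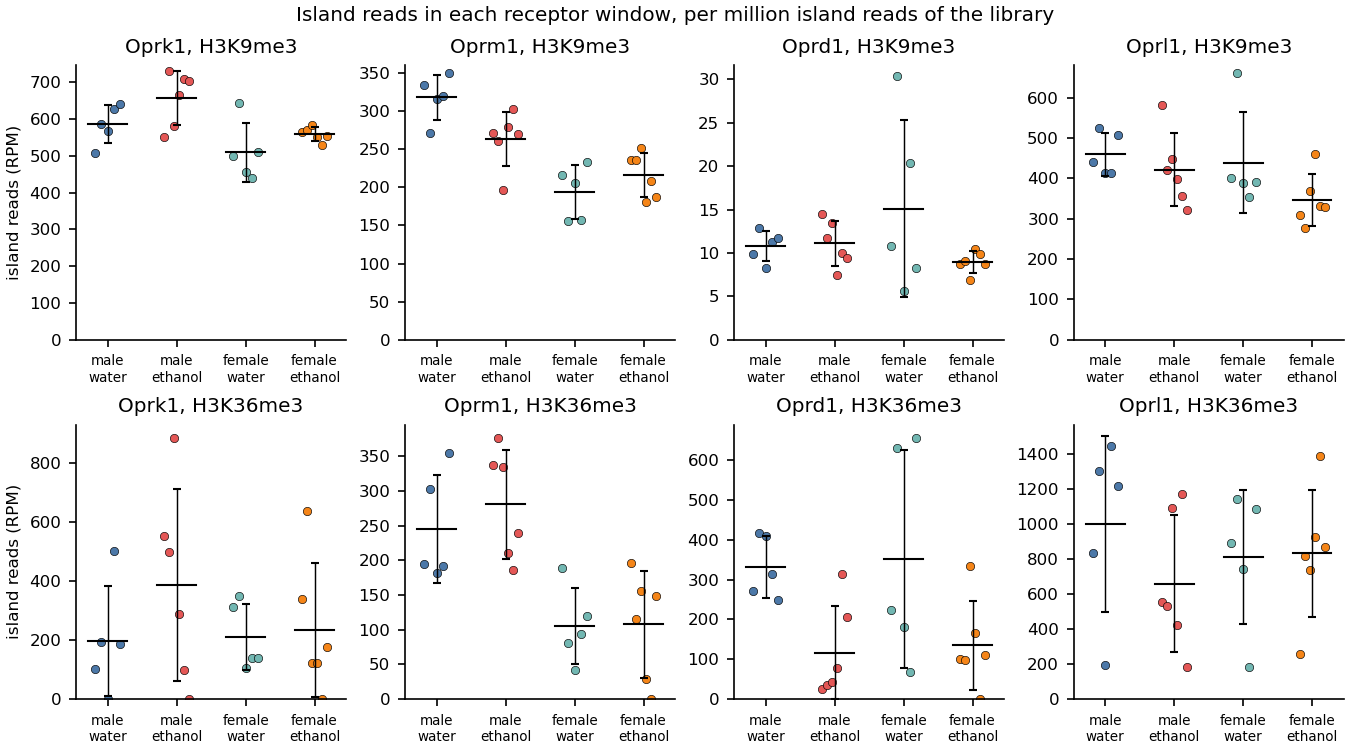
Island reads of each receptor window in RPM (linear axes from 0), for H3K9me3 above and H3K36me3 below, with a point per pool and the mean ± SD of each group. Male ethanol pools lie at 197 to 302 RPM for H3K9me3 at Oprm1, where male water pools lie at 271 to 351.

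H3K36me3 over the receptor windows varied more between pools. At Oprd1, male water pools had 249, 272, 313, 409 and 416 RPM, and male ethanol pools ranged from 25.8 to 314 with a median of 60.1. A single ethanol pool, at 314 RPM, overlapped the water range. The difference was -2.07 (exact permutation p = 0.0238). However, 26.5% of 21676 gene windows were at this threshold in males and 22.5% were at it and lower, with a median difference of -1.65 over all of them. In males, H3K36me3 over neuronal marker bodies moved with the groups. The summed level of the 6 neuronal genes was 142 to 273 RPM in male water and 0 to 37.8 RPM in male ethanol pools, with 2 of 6 genes having an island in at least 11 libraries. In the same 2 groups the sums of the oligodendrocyte genes were 0 to 59.7 and 0 RPM, of the astrocyte genes 0 to 20.7 and 0, of the microglial genes 0 to 91.8 and 0 to 94.1, and of the genes of other tissues 0 to 68.9 and 0. In females the neuronal sums overlapped, at 61.3 to 291 RPM with water and 0 to 224 RPM with ethanol. The part of the marker genes in the Oprd1 result was not tested. As ChIP over input, the Oprd1 difference was 0.08 (exact permutation p = 0.487).

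In females Oprd1 ranged from 67.2 to 656 RPM with water and from 0 to 333 with ethanol (difference -2.04, exact permutation p = 0.175), where 2.75% of 21782 gene windows passed the threshold. Leaving out 1 female pool gave -2.52 to -0.84, the latter without ethanol pool 5. At Oprk1, H3K36me3 ranged from 0 to 500 RPM in male water and 0 to 887 RPM in male ethanol pools. Oprm1 ranged from 182 to 355 and from 186 to 377 RPM in the same groups, and Oprl1 from 192 to 1443 and from 182 to 1173. For these receptors p-values were 0.403 to 0.554 in males and 0.710 to 0.762 in females (exact permutation). Of 4 receptors, 1 in males and 0 in females passed the test, and 0 of 4 passed that of the difference between the sexes, against 7.2% of 21584 gene windows.

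Single regions were tested with edgeR's quasi-likelihood test where every library of the comparison had an island, which left 14 of the 57 H3K9me3 regions in males, 6 in females and 3 across both sexes. None of these reached an unadjusted p of 0.05 in males, in females, in both sexes together, or for the difference between sexes, against 2.39%, 3.01%, 3.18% and 2.72% of all regions tested in these comparisons. DESeq2 also called 0 receptor regions of H3K9me3 in each. Over all regions, edgeR made 0 calls at an adjusted 0.05 in either mark, while DESeq2 made 3 for H3K36me3 in males, 2 for the difference between sexes in H3K36me3 and 0 elsewhere. Log2 fold changes lay between -0.12 and 0.28 in males and between -0.36 and 0.00 in females.

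The 2 regions upstream of Oprk1 with the most H3K9me3 reads lay at chr1:5423801-5429600 and chr1:5477601-5484200, 162 and 108 kb before the gene. The first held 5698 ChIP and 3269 input reads over 22 libraries. In counts per M reads of the regions present in every library, after TMM scaling (CPM), male water pools ranged from 190 to 236 and male ethanol pools from 121 to 223, with medians of 220 and 213. Female water pools ranged from 205 to 231 CPM and female ethanol pools from 201 to 248. All groups overlapped, and the log2 fold changes were -0.12 ± 0.13 (SE, edgeR adjusted p = 0.998) in males and 0.00 ± 0.07 (SE, edgeR adjusted p = 0.999) in females. Its input ranged from 154 to 298 CPM in male ethanol pools, and the pool lowest in ChIP was also lowest in input. The second region was tested in males alone, where water pools had 208 to 226 CPM and ethanol pools 174 to 213 (log2 fold change -0.06 ± 0.06, SE, edgeR adjusted p = 0.998).

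The smallest p-value of an H3K9me3 region at Oprk1 belonged to chr1:5351601-5356600, 234 kb upstream. Female water pools had 113 to 151 CPM and female ethanol pools 54.0 to 138 CPM, and the log2 fold change was -0.36 ± 0.20 (SE; edgeR, adjusted p = 0.996). It was -0.46 without female ethanol pool 3, which then passed an unadjusted 0.05, and -0.23 without female ethanol pool 2. At Oprl1, chr2:181915401-181922000 ranged from 957 to 1218 CPM in female water and 878 to 1058 CPM in female ethanol pools (log2 fold change -0.10 ± 0.07, SE, edgeR adjusted p = 0.996). Without female water pool 2 the change was -0.060. The Oprd1 region in Srsf4 ranged from 35.7 to 91.8 CPM in female water and 42.7 to 55.7 CPM in female ethanol pools (-0.23 ± 0.19, SE, edgeR adjusted p = 0.996). This value was -0.010 without female water pool 4, the pool at 91.8 CPM, and -0.36 without female water pool 3, and turned to 0.11 as ChIP over input. At Oprm1, chr10:7246201-7249600 ranged from 52.6 to 114 CPM in male water and 80.0 to 116 CPM in male ethanol pools (0.08 ± 0.18, SE, edgeR adjusted p = 0.998). Its sign turned without male water pool 2 (-0.067), and leaving out any other male pool gave 0.033 to 0.17.

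**Figure D3:**
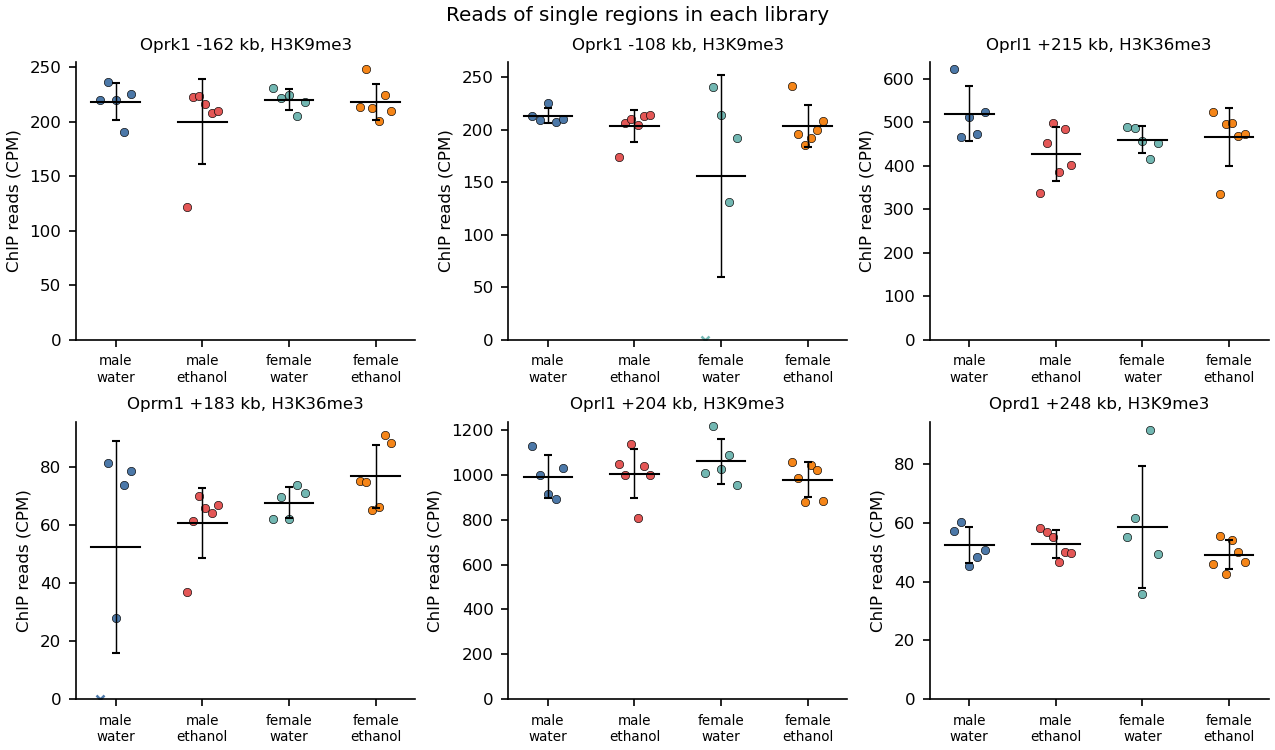
Reads of 6 regions in CPM (linear axes from 0), with a point per pool, a cross where the library had no island, and the mean ± SD of each group. At the Oprl1 region of H3K36me3, male water pools lie at 465 to 624 CPM and male ethanol pools at 337 to 499.

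Of the 28 H3K36me3 regions, 6 were tested in males, 5 in females and 4 across both sexes. A single one passed an unadjusted 0.05, at chr2:181927401-181933400, 215 kb downstream of Oprl1. Over 22 libraries this region held 12648 ChIP and 14311 input reads, not scaled for depth, with medians of 97.9 and 113 per kb. Its ChIP reads exceeded its input reads in a minority of libraries. Male water pools had 465 to 624 CPM with a median of 511, and male ethanol pools 337 to 499 CPM with a median of 427. The ranges overlapped, and the log2 fold change was -0.27 ± 0.13 (SE, edgeR adjusted p = 0.870). This was 1 of 6 receptor regions, while 5.71% of 7532 regions passed in males. In females the same region was at 414 to 490 CPM with water and 336 to 525 CPM with ethanol (0.02 ± 0.12, SE, edgeR adjusted p = 0.998). No receptor region passed in females, in both sexes together or for the difference between sexes, against 3.61%, 3.28% and 5.94% of all regions, and DESeq2 called 0 in each of these as well.

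The male call at Oprl1 depended on scaling. Without TMM factors the median of all male H3K36me3 regions moved to 0.18 and 648 of 678 regions at the threshold were higher with ethanol, against 202 of 430 with them, and the Oprl1 value became -0.10, which no longer passed. A different Oprl1 region, at chr2:181916601-181920400, then passed and was higher with ethanol, at 0.40 ± 0.19 (SE) against 0.21 with TMM factors. It also passed without male water pool 1 (0.39). As ChIP over input the first region was at -0.17 and did not pass in limma. Leaving out 1 pool gave -0.32 to -0.20 for it, and the call was lost without male water pool 1, 3 or 5 or male ethanol pool 1, 2, 4 or 6.

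Other H3K36me3 regions did not pass in edgeR's test with all pools. At chr10:6940001-6943400, in an intron of both Oprm1 and Ipcef1, female water pools had 61.8 to 73.7 CPM and female ethanol pools 65.0 to 91.0 (0.18 ± 0.12, SE, edgeR adjusted p = 0.996). At chr1:5423801-5427800, upstream of Oprk1, the log2 fold change across both sexes was 0.11 ± 0.08 (SE, edgeR adjusted p = 0.995), with 74.6 to 99.97 CPM in male water, 75.5 to 103 in male ethanol, 66.5 to 105 in female water and 82.5 to 99.8 in female ethanol pools. It was 0.068 without female water pool 5, and 0.19 ± 0.09 (SE) as ChIP over input, which passed an unadjusted 0.05 in limma. At the Oprd1 region in Srsf4, male water pools had 14.4 to 36.9 CPM and male ethanol pools 19.6 to 40.6 (0.30 ± 0.28, SE, edgeR adjusted p = 0.931). It was 0.55 without male water pool 3, and 0.16 without male water pool 5 or male ethanol pool 1.

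**Figure D4:**
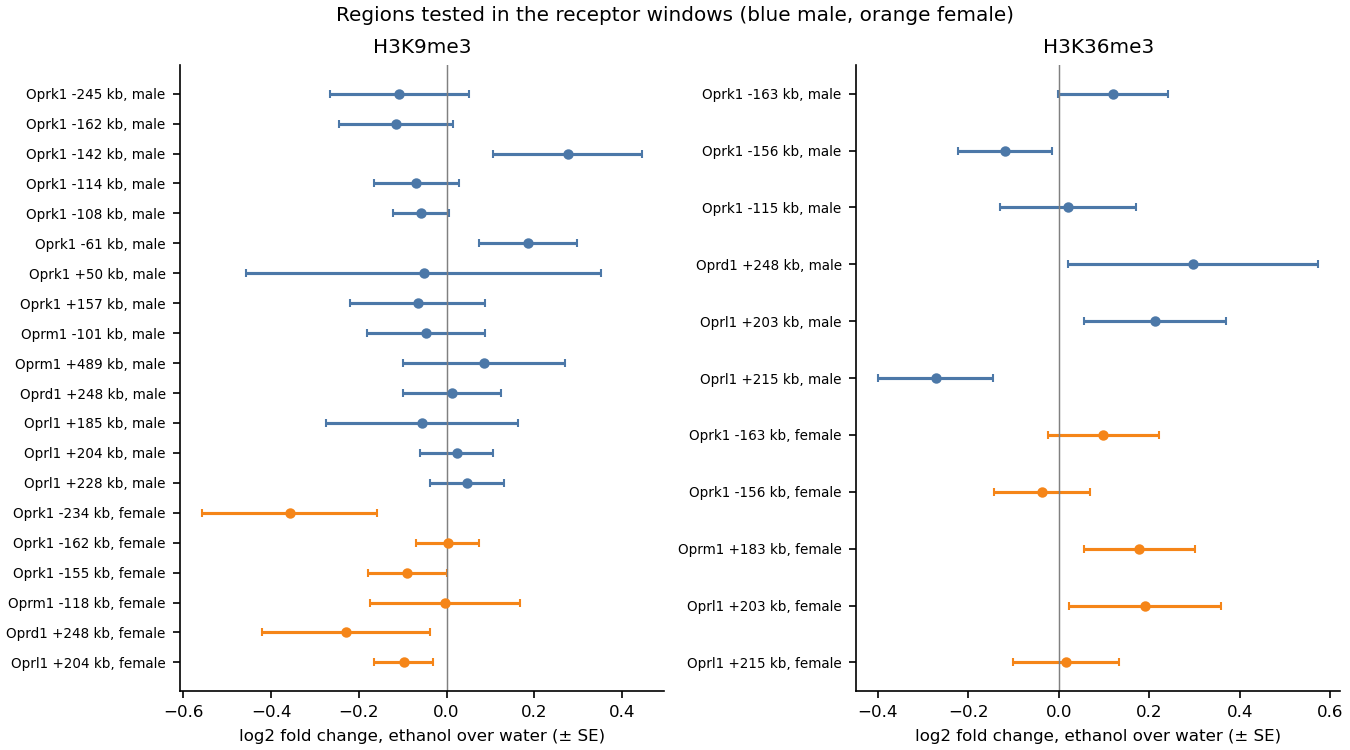
Log2 fold change of ethanol over water (± SE) of each receptor region tested within a sex, labelled by gene and distance from its start in kb. Values span -0.36 to 0.28 for H3K9me3 and -0.27 to 0.30 for H3K36me3.

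Islands that were gained or lost outright were compared by their presence, in islands merged over libraries. For H3K9me3, 32 receptor islands could be tested in males and 34 in females with Fisher's exact test. At chr1:5765201-5768400, 178 kb downstream of the start of Oprk1 and between genes, 6 of 6 male ethanol and 1 of 5 male water libraries had an island (exact p = 0.0152, adjusted p = 1). This was 1 of 32, against 0.951% of all 22089 merged islands tested, or 0.806% that were present in more ethanol libraries. Of the 4 male water libraries without an island at an FDR of at most 0.01, 3 listed an island there above it, with 87, 106 and 126 ChIP reads, and the 6 ethanol libraries had 52 to 120 ChIP reads in theirs. In females 2 of 5 water and 1 of 6 ethanol libraries had an island there (exact p = 0.545). The male call held without any 1 pool (exact p = 0.00476 to 0.0476). It was lost with at least 50% of the island covered (5 of 6 and 1 of 5, exact p = 0.0801), and with all listed islands or those of FDR at most 1e-05 no island at this place met the minimum of 3 male libraries with and 3 without one. None of the 34 receptor islands passed in females, where 1.23% of all merged islands did.

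For H3K36me3, 31 receptor islands were tested in males and 23 in females. At chr2:181638601-181645000, over Prpf6, the gene of a splicing factor upstream of Oprl1, 0 of 6 male ethanol and 5 of 5 male water libraries had an island (exact p = 0.00216, adjusted p = 0.611). The water libraries had 41, 37, 99, 46 and 98 ChIP reads against 26, 15, 60, 20 and 57 input reads, and no island was listed in the ethanol libraries at any FDR. With islands of FDR at most 1e-05 the counts were 0 of 6 and 3 of 5 (exact p = 0.0606), and with at least 50% covered it could not be tested in males. Among all 18421 merged islands tested in males 2.24% passed, and 1.8% were present in fewer ethanol libraries. In females 3 of 5 water and 3 of 6 ethanol libraries had an island there, and none of the 23 receptor islands passed, against 1.29% of all tested.

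Genes of the same signaling pathway were described by the same window test, with 31 listed genes of ligands, processing enzymes, G proteins, kinases, arrestins, RGS proteins and effectors. In males, 0 of the 25 with H3K9me3 reads in at least 3 male libraries passed for that mark, where 4.34% of all gene windows did. Among the ligand genes, Penk (enkephalins) had the highest H3K9me3 level, with 409 ± 32.1 RPM (SD, n = 5) in male water and 464 ± 76.1 RPM (SD, n = 6) in male ethanol pools (exact permutation p = 0.165). Pdyn (dynorphins) had 84.8 ± 23.4 and 82.7 ± 33.0 RPM in the same groups (exact permutation p = 0.773). Pnoc (nociceptin) had 3.75 ± 5.39 and 5.20 ± 6.27 RPM, and Pomc (beta-endorphin) was at 0 in every male pool. In females, Penk had 332 ± 54.5 and 364 ± 30.2 RPM with water and ethanol, and Pdyn 70.1 ± 48.8 and 75.3 ± 18.9. Arrb2, which encodes a beta-arrestin, was lower with ethanol in females, at 36.5 ± 26.1 RPM (SD, n = 5) with water and 10.2 ± 9.98 RPM (SD, n = 6) with ethanol (exact permutation p = 0.0476), and was the 1 gene to pass of the 25 with reads in at least 3 female libraries, where 6.17% of all gene windows did. In males Arrb2 had 16.02 ± 5.65 and 29.7 ± 15.6 RPM, a difference of 0.75 (exact permutation p = 0.104).

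For H3K36me3, 3 of 31 genes were lower with ethanol in males and 0 higher, against 22.5% of all gene windows that were lower at this threshold, with a median difference of -1.31 over the list and -1.65 over all genes. These were Pomc (351 ± 129 RPM with water and 129 ± 145 with ethanol, exact permutation p = 0.0303), Cacna1a and Cacna1b, which encode calcium channel subunits closed by the receptors' G proteins (differences of -4.63 and -4.76, exact permutation p = 0.0216 and 0.0498). Cacna1a had 571 ± 249 RPM with water and 153 ± 294 with ethanol, and Cacna1b 401 ± 130 and 111 ± 142. Reads were present in 9 and 8 of 11 male libraries, so pools at 0 enter these log2 differences. In females, Gnai3, a G protein subunit, was lower (152 ± 64.6 RPM with water and 59.3 ± 49.4 with ethanol, exact permutation p = 0.0433), and 0 of 31 were higher. That was 1 of 31 against 2.75% of all gene windows. Pnoc in males had 143 ± 89.9 and 55.9 ± 98.1 RPM, which did not pass (exact permutation p = 0.0606), and Pdyn and Penk had p-values of 0.515 and 0.506 in males (exact permutation).

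Gene windows on other chromosomes that varied most like those of the receptors over the 22 H3K9me3 libraries are given as a description, since libraries share their depth. For Oprk1 they were Olfr809, Olfr808 and Rasa1 (Pearson's r = 0.82, 0.81 and 0.80). For Oprm1 they were Slit2, Akr1c12 and Veph1 (0.84, 0.83 and 0.83), for Oprd1 Rnf185, Brox and Aida (0.95, 0.94 and 0.94) and for Oprl1 Tfap2a, Kcnn1 and Asmt (0.81, 0.79 and 0.78).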

How the data were processed

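Samples were grouped by their titles. For H3K9me3, the authors trimmed reads with CutAdapt, aligned them to GRCm38 with Bowtie2 2.4.1, removed reads in blacklisted regions or with several mapping places, and called SICER islands per library against the input of the pool (200 bp window, 400 bp gap). The submitters' processing notes name the same tools and build for the series, and the H3K36me3 lists carry a gap of 600 bp; the sources used here do not give its other filters. Pools were not combined, and both marks of a pool shared 1 input. The deposited counts are unnormalized ChIP and input reads per island. The deposited p-values and FDR compare them, and the deposited fold is their ratio divided by 1 constant per library. Input libraries entered through these lists alone, and depth outside islands is unknown.

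Regions were positions under islands of at least 11 of 22 libraries (H3K9me3 at an FDR of at most 0.01, H3K36me3 all listed), with reads apportioned by overlap. They were tested with edgeR 4.0.16 (filterByExpr, TMM, quasi-likelihood test, Benjamini-Hochberg over all regions) where every library of the comparison had an island. The unadjusted 0.05 followed the study. Windows were tested by exact permutation of log2(RPM + 1), and merged islands in at least 2 libraries by Fisher's exact test, where at least 3 libraries of a sex had and 3 lacked one. Alternatives were DESeq2 1.42.0, limma 3.58.1 on ChIP over input, other islands, scales and flanks, and leaving out each pool; the fit of input reads alone, and the other settings for the difference between sexes at Oprm1, were chosen after seeing the data. Sequences came from the RefSeq GRCm38 genome, gene models from GENCODE vM21, alignments from blastn 2.17.0. Tests were tried on simulated data in R 4.3.3 and Python 3.11.15. Members and lists were chosen with earlier results of these data known. Named regions were those of smallest edgeR p per window and mark, plus the 2 upstream of Oprk1 with the most reads; of 31 pathway genes, ligand genes and those at 0.05 were named.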

Additional observations from a re-analysis of the deposited data

Results flagged for a closer look

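The H3K9me3 effect of ethanol at the Oprm1 window differed between the sexes by 0.446 in log2(RPM + 1), from -0.28 in males to 0.17 in females (exact permutation p = 0.0198). It was 1 of 8 such differences over 4 receptors and 2 marks, with no adjustment, and 3.95% of all H3K9me3 gene windows passed the same test. With islands of FDR at most 1e-05 the difference was -0.023 and as ChIP over input -0.018, with both sexes lower in each.

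Among 67 groups of 5 or 6 pools, 8 single pools stood far from their group by Dixon's criterion, which chance meets in about 1 of 20 groups. Female water pool 2, whose H3K9me3 library had the fewest islands (12804), was high for H3K9me3 at Oprl1, at 660.8 RPM where the next was 400.7. Male ethanol pool 1 was low in 3 regions: 121.5 CPM for H3K9me3 at chr1:5423801-5429600 (next 207.8), 173.8 CPM at chr1:5477601-5484200 (next 204.7), and 36.7 CPM for H3K36me3 at chr10:6940001-6943400 (next 61.2). In the second of these, male water pool 3 was high, at 225.6 CPM (next 212.6). For H3K9me3 at chr10:7246201-7249600, female ethanol pool 3 was low at 45.4 CPM (next 94.0) and male water pool 2 at 52.6 CPM (next 98.0). For H3K36me3 at chr2:181927401-181933400, female ethanol pool 2 was low at 336.0 CPM (next 468.7).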

How the results depend on the processing

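Counts of receptor items at an unadjusted 0.05 are compared with 1 male H3K36me3 region, 1 window per mark, 1 island per mark in presence and 0 for other region tests. H3K9me3 regions gave 1 in males as ChIP over input (limma), 2 with input reads alone, 1 with islands of at least 6 libraries and 1 with all listed islands. Females gave 1 under each of the latter 2, both sexes 3 with all listed islands, and the difference between sexes 1 with input reads alone and 1 with islands of at least 6 libraries. H3K36me3 regions gave 0 in males as ChIP over input and in a fit blocked on pool number. They also gave 0 with islands of FDR at most 0.01 in at least 8 libraries of a sex, where 1 receptor region was left and 0 of 795 regions passed. The 1 male region without TMM factors was a different one, chr2:181916601-181920400, and higher with ethanol. Both sexes gave 1 without TMM factors and 1 with the block, the same region, and 1 as ChIP over input, at Oprk1, and the difference between sexes 1 with islands of at least 6 libraries. H3K9me3 windows gave 2 with all listed islands and 2 with 100 kb flanks, but 0 as ChIP over input, as kb covered and over the body alone. H3K36me3 windows gave 2 with all listed islands and as kb covered, but 0 as ChIP over input and over the body. Presence gave 2 (H3K9me3) and 0 (H3K36me3) with FDR at most 1e-05, 2 and 3 with all listed islands, where no H3K9me3 call was the reported one and the H3K36me3 one was kept, and 0 and 0 with at least 50% of an island covered. Leaving out 1 pool gave 0 to 1 for H3K9me3 regions in males and in females and for H3K36me3 regions in males, in both sexes and between sexes, 0 to 2 for H3K9me3 windows, and 1 to 3 for presence in either mark.

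Some directions reversed, in results that had not passed the test apart from male Oprd1 H3K36me3 and the Oprm1 difference between sexes. As ChIP over input, the H3K9me3 regions became 0.0064 (Oprl1, female), 0.11 (Oprd1, female) and -0.12 (Oprm1, male), the Oprd1 H3K36me3 region -0.090 (male), and the windows -0.011 (Oprk1 H3K9me3, male), 0.021 (Oprl1 H3K9me3, male), -0.070, 0.16 and 0.041 (Oprm1, Oprd1 and Oprl1 H3K9me3, female) and 0.083 (Oprd1 H3K36me3, male), and the Oprm1 H3K9me3 difference between sexes, which had passed, -0.018. With input reads alone the Oprk1 H3K36me3 region in both sexes became -0.080. With FDR at most 1e-05, H3K9me3 windows became -0.0030 (Oprk1, male), -0.71 (Oprd1, male), -0.27 (Oprm1, female) and 0.61 (Oprd1, female), the Oprl1 H3K36me3 window 1.75 (male) and the Oprm1 difference between sexes -0.023. With all listed islands, H3K36me3 windows became -0.022 (Oprm1, male), 0.32, 0.084 and -0.034 (Oprk1, Oprm1 and Oprl1, female), and per M reads of all listed islands Oprl1 became -0.33 (female). As kb covered, Oprd1 H3K9me3 became -0.053 kb (male), Oprl1 H3K9me3 4.11 kb (female) and Oprl1 H3K36me3 -8.02 kb (female). With 100 kb flanks, Oprl1 H3K9me3 became 1.61 (male) and 1.89 (female, exact permutation p = 0.0368), and H3K36me3 -1.23 (Oprm1, male) and 0.58 (Oprk1, female). Over the body, H3K36me3 became -0.36 (Oprm1, male) and 0.84 (Oprd1, female). Leaving out 1 pool gave -0.064 to 0.12 for the male Oprd1 H3K9me3 window, -1.60 to 0.27 and -0.59 to 2.37 for the female and male Oprk1 H3K36me3 windows, -0.35 to 0.43 and -1.31 to 0.22 for the female Oprl1 and Oprm1 H3K36me3 windows, and -0.067 to 0.17 for the male Oprm1 H3K9me3 region. The cause was not tested.

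Pool numbers did not pair the samples (same-numbered deviations correlated at -0.12 to 0.09), and with the replicate block the male Oprm1 H3K9me3 window was -0.29 (exact permutation p = 0.0625). That is the smallest p the blocked window test can give, so its 0 calls in either mark say nothing. Without TMM factors, 16 of 531 regions at 0.05 were higher for the H3K36me3 difference between sexes, against 159 of 342, and 279 of 288 in both sexes, against 100 of 189. ChIP over input could not be computed where a library had no island, named regions were not carried to other island choices since bounds differ, and 100 kb flanks left no receptor region in several tests. Island reads, not whole libraries, set the depth, so a window without an island is not a window without the mark.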
